A study of Homo sapiens with 38 samples.

Results

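WSUDLCL2 is a human diffuse large B-cell lymphoma cell line, and its response to 2 histone deacetylase (HDAC) inhibitors was read from 7 of the 37 libraries in a table of RNA-seq gene counts, taken by the name of the line in their titles. Pracinostat and vorinostat were each given for 6 h and for 14 days, which made 4 drug libraries with 1 library per drug and time. They were set against 3 libraries from cells given DMSO, the solvent used as vehicle, of which 1 was taken at 6 h and 2 at 14 days. The 14 day vehicle libraries are titled DMSOV and DMSOP, letters that are also the initials of vorinostat and pracinostat. The 6 h vehicle library has no letter in its title but is named DMSOV in the deposited log2 CPM values. The study compared lymphoma lines that differ in their sensitivity to HDAC inhibitors, and 5 other lines were treated at 6 h and 4 of them at 14 days. SUDHL6, used at 6 h alone, has a pracinostat library and no vorinostat library here. The doses, the number of cultures and whether libraries came from separate cultures are not given in the labels, so p-values measure only the spread between these libraries. Both drugs were pooled as the treatment, and any difference between them is part of that spread.

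Acetyl groups on histone tails are added by histone acetyltransferases and removed by HDACs, and an HDAC inhibitor raises acetylation across the genome, with some genes rising and others falling. Pracinostat and vorinostat are both hydroxamic acids that bind the zinc ion of class I and II enzymes. Pracinostat carries a benzimidazole group that vorinostat lacks. CDKN1A, the gene for the cell cycle inhibitor p21, is a classic target in many cell types, and the class II transactivator CIITA and the MHC class II genes it drives are among the genes studied in B-cell lymphoma, where their loss is linked to poor antigen presentation.

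The 7 libraries held 3416646 to 8919622 counts, against 3188528 to 8741435 counts in the other lines. A count of 3 in a library, used below as the floor for a gene listed at 0, corresponded to 0.336 to 0.878 CPM. CPM is the count divided by the library total and multiplied by 1e+06, and levels of genes below are scaled by the trimmed mean of M values (TMM). Mitochondrial genes took 9.71% to 14.1% of the counts. All 9 B-cell markers were measured, with a summed level of 6729 to 14350 CPM. The 9 measured of 12 T-cell markers summed to 469 CPM with pracinostat and 305 CPM with vorinostat at 14 days, against 165 CPM in DMSOV and 175 CPM in DMSOP. At 6 h they summed to 138 and 109 CPM with the drugs against 260 CPM in DMSO. Most of this was LCK, and CD3D was at 0 in all 7 libraries while TRAC had 35.4 to 100 CPM. Myeloid markers are given below beside the results of 14 days. In bulk RNA, fewer cells of a type and less RNA per cell cannot be told apart.

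Over both times, 1197 of 13851 genes passed the test of drug against DMSO with time as a block, 8.64% of those tested, and 936 (6.76%) were higher with drug while 261 (1.88%) were lower. A gene was called when its edgeR quasi-likelihood p, adjusted by Benjamini and Hochberg over all tested genes, was under 0.05. TUBB2B, a beta-tubulin isotype abundant in neurons, had 27.2 CPM with pracinostat and 48.7 CPM with vorinostat at 6 h, against 1.68 CPM in DMSO. At 14 days its levels were 289 CPM with pracinostat and 461 CPM with vorinostat, against 3.20 CPM in DMSOV and 5.91 CPM in DMSOP. Every drug library lay above every DMSO library of either time. TUBB2B is close in sequence to TUBB2A, and how reads shared by them were counted was not stated. Its log2 fold change of 5.82 ± 0.48 (SE, edgeR, adjusted p = 0.000138) was the largest among the called genes of at least moderate level, those whose log2 CPM averaged 2 or more.

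CDKN1A had 42.9 CPM with pracinostat and 50.3 CPM with vorinostat at 6 h, against 8.10 CPM in DMSO. At 14 days it had 70.6 CPM with pracinostat and 108 CPM with vorinostat, against 4.65 CPM in DMSOV and 8.80 CPM in DMSOP. The drug libraries again lay above all DMSO libraries, with a log2 fold change of 3.23 ± 0.36 (SE, edgeR, adjusted p = 0.000363). The promoters of these genes are shown because both were induced at both times, and because GC boxes bound by Sp1-family factors are known to matter for the induction of CDKN1A by HDAC inhibitors in other cells. The windows run from 250 bases before to 50 after the annotated start (RefSeq, GRCh38.p14; TUBB2B at chr6:3227604-3227903 on the minus strand, CDKN1A at chr6:36678464-36678763 on the plus strand), and capitals mark GGGCGG or its reverse complement CCGCCC.
TUBB2B: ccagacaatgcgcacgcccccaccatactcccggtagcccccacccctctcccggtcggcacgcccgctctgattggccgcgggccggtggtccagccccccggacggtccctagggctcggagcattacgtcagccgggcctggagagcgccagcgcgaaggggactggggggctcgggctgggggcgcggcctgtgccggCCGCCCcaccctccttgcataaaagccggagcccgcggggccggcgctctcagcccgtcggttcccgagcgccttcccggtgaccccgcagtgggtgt
CDKN1A: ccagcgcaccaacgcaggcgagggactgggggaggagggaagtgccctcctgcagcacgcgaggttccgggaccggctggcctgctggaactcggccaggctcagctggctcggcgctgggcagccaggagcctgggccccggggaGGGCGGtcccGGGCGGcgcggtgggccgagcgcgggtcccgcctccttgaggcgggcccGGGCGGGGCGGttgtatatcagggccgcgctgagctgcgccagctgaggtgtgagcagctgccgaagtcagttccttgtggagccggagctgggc
The TUBB2B window held 1 match and the CDKN1A window held 4, some of which overlap. Of all 35116 promoters of this length in the same table, 45.0% held the motif at least once, so a match is common and marks no bound site.

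The other leading rises came from unrelated functions. SERPINB6, an intracellular protease inhibitor, had 17.8 CPM with pracinostat and 9.34 CPM with vorinostat at 6 h against 0.279 CPM in DMSO, and 59.9 and 102 CPM with these drugs at 14 days against 2.61 CPM in DMSOV and 4.75 CPM in DMSOP. Its log2 fold change over both times was 4.62 ± 0.42. NELL2, a secreted protein known from neurons, had a log2 fold change of 5.23 ± 0.61 and S100A10, the annexin A2 partner, of 4.62 ± 0.80. The actin-bundling gene FSCN1 was called with 4.39 ± 1.12 (adjusted p = 0.046), but its 14 day levels were 25.6 CPM with pracinostat and 348 CPM with vorinostat, against 4.79 CPM in DMSOV and 3.71 CPM in DMSOP. TCL1A, a co-activator of AKT signalling expressed in B cells, was higher by 4.20 ± 0.54 on the log2 scale, and the protein kinase C gene PRKCB, which acts below the B-cell receptor, by 3.11 ± 0.31. All of these rises passed the test and had the same sign in all 4 drug libraries. Other than for PRKCB, both were conditions for naming them here, so neither is separate evidence.

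**Figure D1:**
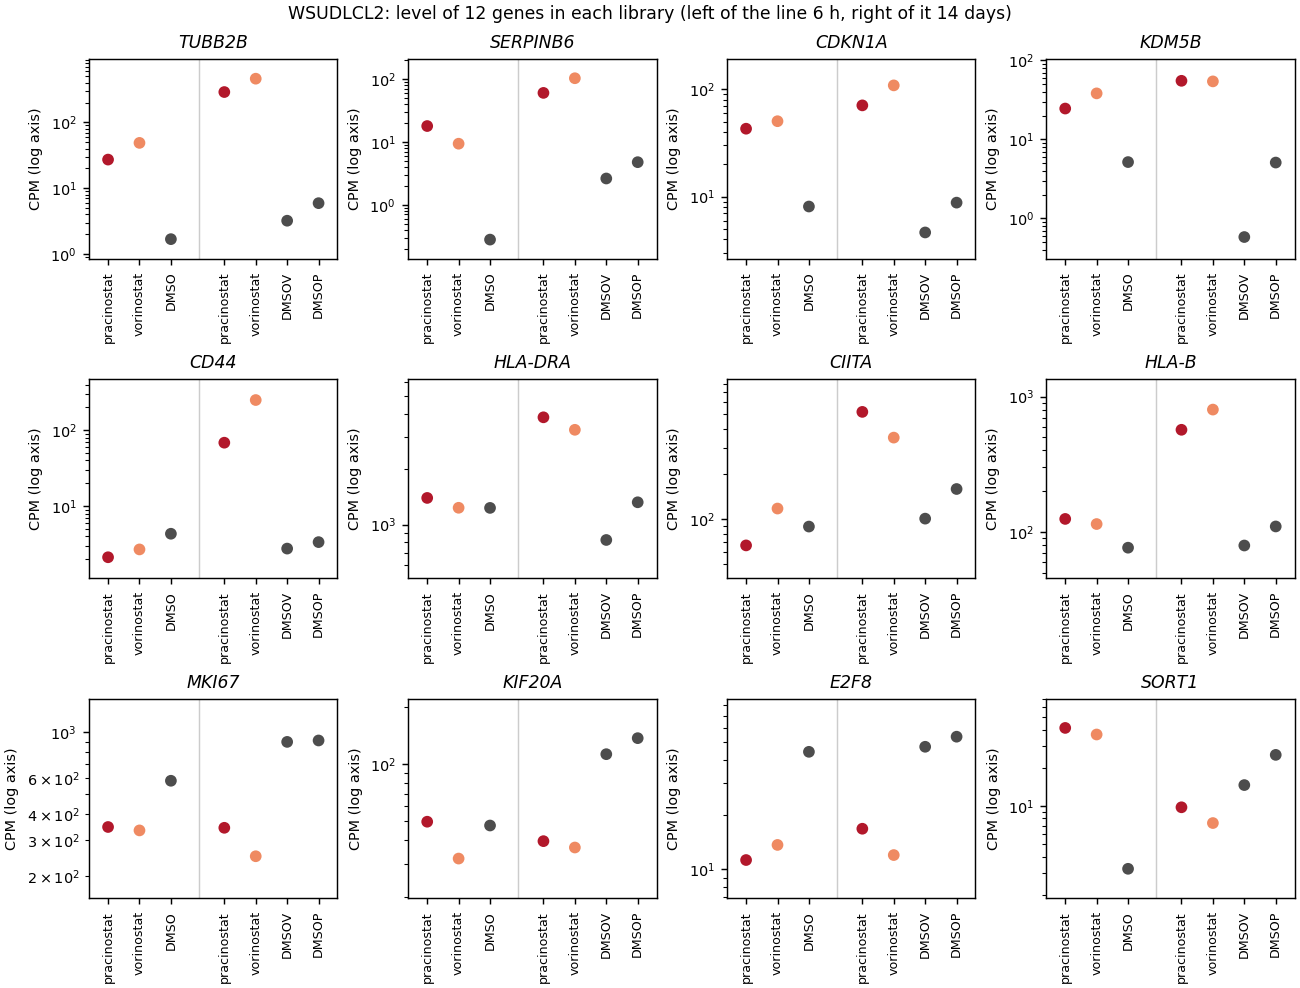
Level of 12 genes in each WSUDLCL2 library in CPM on log axes, with pracinostat, vorinostat and DMSO at 6 h left of the grey line and pracinostat, vorinostat, DMSOV and DMSOP at 14 days right of it. TUBB2B, SERPINB6 and CDKN1A are above DMSO at both times, CD44, HLA-DRA, CIITA and HLA-B are highest in the drug libraries of 14 days, and SORT1 is above DMSO at 6 h (41.4 and 36.7 against 3.21 CPM) and below both DMSO libraries at 14 days.

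Among the falls, TERT, the catalytic subunit of telomerase, had 2.55 CPM with pracinostat and 3.48 CPM with vorinostat at 6 h against 11.2 CPM in DMSO, and 1.78 and 0.614 CPM with these drugs at 14 days against 15.7 CPM in DMSOV and 13.2 CPM in DMSOP. The 4 drug libraries lay below all 3 DMSO libraries (log2 fold change −2.75 ± 0.46, adjusted p = 0.0035). E2F8, an atypical E2F that represses transcription in the late cell cycle, had 11.2 and 13.6 CPM with pracinostat and vorinostat at 6 h against 44.3 CPM in DMSO. At 14 days it had 16.7 and 12.0 CPM with the drugs against 47.2 CPM in DMSOV and 53.6 CPM in DMSOP, again without overlap (−1.82 ± 0.26, adjusted p = 0.0013). TFR2, a transferrin receptor, fell by 1.95, CPXM1, a carboxypeptidase-like protein, by 1.91, and DIP2C by 2.03 on the log2 scale. The proliferation marker MKI67 was lower with a log2 fold change of −1.30 ± 0.25, and thymidylate synthase TYMS with −1.29 ± 0.25.

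Of the 15 tested genes in a list of common HDAC inhibitor targets, 4 rose and none fell: CDKN1A, KDM5B (log2 fold change 3.54), SERPINI1 (4.07) and the linker histone H1F0 (2.80). The list's median was 1.173, beside 0.04 over all genes, of which 6.76% were called higher and 1.88% lower. KDM5B, a histone H3 lysine demethylase, had 24.6 and 38.3 CPM with pracinostat and vorinostat at 6 h against 5.17 CPM in DMSO. At 14 days it had 55.3 and 54.3 CPM with these drugs against 0.581 CPM in DMSOV and 5.10 CPM in DMSOP, and the vehicle libraries differed from each other by more than the drug libraries did. Among the p53 target genes, 4 of 22 were higher and 1 was lower, with SESN1 at 3.20 ± 0.41, TP53INP1 at 2.25 ± 0.41 and GADD45A at 1.44 ± 0.36 beside CDKN1A, and the death receptor gene TNFRSF10A at −0.93. Of the 11 HDAC genes, HDAC11 alone passed the test (2.44 ± 0.56), at levels of 4.27 CPM or less in every library. HDAC1 stayed between 435 and 658 CPM, and EZH2, the methyltransferase of Polycomb complex PRC2, between 143 and 191 CPM. None of the 10 histone acetyltransferase genes had a positive change, and 1 of them, KAT5 (−1.26), was called lower.

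The B-cell transcription factor genes gave mixed values. IRF4, needed for plasma cell differentiation, was higher (log2 fold change 1.85 ± 0.47), while BCL6, the germinal centre repressor, was lower (−0.95 ± 0.27) and so was IKZF3 (−1.06 ± 0.30). MYC and BCL2 had log2 fold changes of −0.70 and −0.57 and did not pass the test. The BCL6 call (adjusted p = 0.044) was lost when library totals replaced TMM as scaling, and when any library other than pracinostat at 14 days was left out. The IKZF3 call was lost when those same libraries were left out and with limma. The IRF4 call was lost with each 14 day drug library paired with the vehicle of the same letter, and without either vehicle of 14 days or either vorinostat library. The total of 1197 calls fell to 444 without vorinostat at 14 days, 472 without DMSOV, 498 without DMSOP and 689 without vorinostat at 6 h, and reached 1755 without pracinostat at 14 days. Without the time block it was 188.

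At 6 h, 114 genes were called (0.823% of 13851), 64 higher (0.462%) and 50 lower (0.361%). The rises with the largest log2 fold changes started from very few counts. CORO2A, a coronin that binds actin, had 9.97 CPM with pracinostat and 10.5 CPM with vorinostat against 0.140 CPM in DMSO, which was 1 count, and the ratio of summed counts was 73.4 with an exact 95% interval of 12.9 to 2920 for counting error. SERPINB6 had a ratio of 46.4 (12.6 to 387), CTTNBP2NL, a protein of a phosphatase complex, of 45.1 (12.3 to 376), and RGL1, a Ral exchange factor, of 35.9 (12.1 to 176). ZNF385A, an RNA-binding zinc finger protein, had 15.5 and 37.8 CPM with the drugs against 0.838 CPM in DMSO, and H1F0 had, in the same order, 98.7 and 115 CPM against 3.91 CPM in DMSO, a log2 fold change of 4.71 ± 0.89. The inducible chaperone HSPA1A, whose reads may be shared with its near-identical neighbour HSPA1B, had 39.0 and 30.9 CPM against 4.89 CPM in DMSO (2.78 ± 0.52), and at 14 days its drug and DMSO libraries overlapped.

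The 6 h falls included several B-cell genes. IGHG1, an immunoglobulin heavy chain constant gene, had 6.58 and 7.12 CPM with pracinostat and vorinostat against 61.2 CPM in DMSO (log2 fold change −3.20 ± 0.46, adjusted p = 0.025). IKZF3, the lymphoid factor Aiolos, had 136 and 79.8 CPM against 386 CPM in DMSO (−1.89 ± 0.37), and S1PR2, a receptor that confines germinal centre B cells, had 103 and 70.9 CPM against 312 CPM in DMSO (−1.89 ± 0.37). UBTF, a factor for ribosomal RNA transcription, had 64.9 and 59.8 CPM against 286 CPM in DMSO (−2.24 ± 0.33). The actin regulator EVL had a log2 fold change of −2.68, BEND3, a repressor of transcription, of −2.72, the tRNA modification enzyme DUS3L of −2.82 and METAP1D, a mitochondrial peptidase, of −3.00. Beyond the calls, 20 of the 21 tested B-cell identity genes had a negative change at 6 h, with a median of −0.918 beside 0.034 over all genes, although IKZF3 was the 1 member called.

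The 6 h comparison rests on 1 DMSO library, and its spread was taken from the drug pair of each time and the vehicle pair of 14 days. No gene was called without vorinostat at 6 h (0) and 6 without pracinostat at 6 h, while 34 were called without DMSOP, 77 without DMSOV, 504 without vorinostat at 14 days and 514 without pracinostat at 14 days. A fit on the 3 libraries of 6 h alone called 533, and scaling by library totals, which moved the median of all genes to 0.147 from 0.034, called 38. Under library totals, each fall named here other than IGHG1 and UBTF lost its call, and so did the rises of H1F0 and CDKN1A.

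At 14 days, 1112 genes were called, 8.03% of 13851, with 934 higher (6.74%) and 178 lower (1.29%). CD44, the hyaluronan receptor of activated and memory lymphocytes, had 68.6 CPM with pracinostat and 250 CPM with vorinostat, against 2.76 CPM in DMSOV and 3.36 CPM in DMSOP. Its lowest drug library was far above both vehicle libraries, with a log2 fold change of 5.71 ± 0.58 (adjusted p = 0.00011). TUBB2B (6.37 ± 0.47) and S100A10 (5.84 ± 0.53) had larger changes still. LZTS1, a gene known as a tumour suppressor, had 2.00 and 0.614 CPM with pracinostat and vorinostat against 16.4 CPM in DMSOV and 32.0 CPM in DMSOP, the largest fall among genes of that level (−4.08 ± 0.60). TERT followed with −3.48 ± 0.56, and TFR2 was lower by −2.53 ± 0.45.

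Most MHC class II genes rose at 14 days. Of the 13 MHC class II genes tested, 11 were called higher at 14 days and 0 at 6 h, and their median log2 fold change at 14 days was 1.763 beside 0.056 over all genes. In the test of the difference between times, all 13 were positive and 0 were called. HLA-DRA, the alpha chain of HLA-DR, had 3836 CPM with pracinostat and 3280 CPM with vorinostat, against 825 CPM in DMSOV and 1323 CPM in DMSOP (1.75 ± 0.30, adjusted p = 0.0029). CIITA had 519 and 350 CPM with the drugs against 101 CPM in DMSOV and 159 CPM in DMSOP (1.76 ± 0.36). HLA-DMA, which helps load peptides, was higher by 2.56 and HLA-DQB1 by 2.48 on the log2 scale. CD74, the invariant chain, and HLA-DOB had positive values that did not pass. With DMSOV as the only 14 day control 10 of the 13 were called, and with DMSOP alone 2 were, with medians of 2.141 and 1.467. HLA-DRA and CIITA kept their direction with DMSOP alone and lost their calls. In MHC class I, 3 of the 14 genes rose and none fell, among them HLA-B (2.87) and HLA-C (2.06). Of all tested genes 6.74% were called higher and 1.29% lower. HLA-B had 568 and 801 CPM with pracinostat and vorinostat against 79.6 CPM in DMSOV and 110 CPM in DMSOP. HLA genes are alike in sequence, and how their shared reads were counted is not given in the sources used here.

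Some genes of B-cell activation and movement rose as well. Of 17 tested, 6 were called higher and 0 lower, with a median of 1.72. Over all genes tested at 14 days, 6.74% were called higher and 1.29% lower, and the median was 0.056. The risers included CD44, the chemokine receptors CCR7 (3.58) and CXCR5 (3.20), the survival gene BCL2A1 (3.04) and CD83 (1.81). BCL2A1 had 81.3 CPM with pracinostat and 202 CPM with vorinostat against 16.9 CPM in DMSOV and 18.1 CPM in DMSOP. In the NF-kB list 4 of 16 were higher, the chemokine CCL22 (5.68), the cytokine subunit EBI3 (2.38), TRAF1 (2.08) and BIRC3 (1.84), and the list's median was 1.078. CCL22 started near the floor, from 0.145 CPM in DMSOV and 0.463 CPM in DMSOP, so the size of its change is uncertain. BIRC3, an inhibitor of apoptosis, had 388 and 996 CPM with the drugs against 167 CPM in DMSOV and 226 CPM in DMSOP, and it was not called with either vehicle library alone. In the interferon list 4 of 21 were higher, MX1, MX2, OASL and IFIH1, and MX2 was listed at 0 in both DMSO libraries, which puts the mean of the drug libraries at least 8.41-fold higher. Of the B-cell identity genes, SPIB (1.36), FCER2 (5.41) and CR2 were higher and none of the 21 lower. At the share of falls over all genes, a list of this size would seldom hold one. CR2, the complement receptor CD21, was at 0 in both DMSO libraries and at least 17.8-fold higher with drug by the same floor of 3 counts per library. FCER2 also started near the floor, from 0.145 CPM in DMSOV and 0.3475 CPM in DMSOP.

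ABCB1, the drug efflux pump P-glycoprotein, was at 0 counts in both 14 day DMSO libraries and had 57.3 CPM with pracinostat and 29.5 CPM with vorinostat. The mean of the drug libraries was at least 99.5-fold higher. The vault protein gene MVP rose with it (2.35 ± 0.47), and these were the 2 called of the 5 tested genes of the drug efflux list. In the other lines the 14 day change of ABCB1 ranged from 1.21 in SUDHL4 to 3.73 in PFEIFFER, with 7.05 in WSUDLCL2 on the same scale of log2 CPM with a prior count of 2.

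Markers of some other cell types moved with these rises. The 5 measured of 13 myeloid markers summed to 84.5 CPM with pracinostat and 82.9 CPM with vorinostat, against 1.31 CPM in DMSOV and 3.13 CPM in DMSOP. At 6 h the same sum was 0.424 and 0.791 CPM with the drugs and 0.698 CPM in DMSO. The 3 tested markers were all called higher at 14 days: ITGAX, the integrin CD11c that some activated B cells also carry (70.0 CPM with pracinostat and 45.7 CPM with vorinostat, against 0.436 CPM in DMSOV and 2.78 CPM in DMSOP), CSF1R (7.35 and 29.5 CPM against 0.436 CPM in DMSOV and 0.232 CPM in DMSOP) and ITGAM (4.23 and 6.45 CPM against 0.290 CPM in DMSOV and 0 CPM in DMSOP). The defining myeloid genes CD14, LYZ, MPO and S100A8 had no single entry in the counts, so their levels could not be read. Fibroblast and endothelial markers, 5 of 10 measured, summed to 21.6 and 40.5 CPM with the drugs against 1.89 CPM in DMSOV and 3.24 CPM in DMSOP. NK markers summed to 4.23 CPM or less in every library. Epithelial markers stayed at 1.04 CPM or less, and erythroid and megakaryocyte markers at 0.67 CPM or less. In the other lines the median 14 day change of 3 fibroblast and endothelial markers was −0.37 to 3.35, with 2.48 in WSUDLCL2. For 2 myeloid markers it was 0.54 to 3.69, with 4.90 in WSUDLCL2. The part of these markers in the rises of antigen presentation and activation genes was not tested.

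Part of the cell division genes fell at 14 days. All 25 genes of the G2/M and mitosis list had negative changes, 12 of them were called, and the median was −1.184, while at 6 h 0 were called and the median was −0.028. Over all genes tested at 14 days, 1.29% were called lower and the median was 0.056. The difference between times was negative for all 25 and called for 0. MKI67 had 343 CPM with pracinostat and 250 CPM with vorinostat, against 900 CPM in DMSOV and 914 CPM in DMSOP (−1.60 ± 0.29, adjusted p = 0.0044). KIF20A, a kinesin of cytokinesis, had 39.4 and 36.5 CPM with the drugs against 113 CPM in DMSOV and 137 CPM in DMSOP (−1.69 ± 0.32). The kinesin KIF14 (−1.89) and the centromere protein CENPF (−1.65) fell in the same range. With DMSOP alone as control 4 were called, with DMSOV alone 3, and with scaling by library totals 15. The KIF20A call was lost with DMSOV alone.

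The KIF20A promoter is shown as an example of the list, since CCAAT boxes bound by NF-Y are a known feature of G2/M promoters. It lies at chr5:138178862-138179161 on the plus strand (RefSeq, GRCh38.p14), and capitals mark CCAAT or its reverse complement ATTGG.
KIF20A: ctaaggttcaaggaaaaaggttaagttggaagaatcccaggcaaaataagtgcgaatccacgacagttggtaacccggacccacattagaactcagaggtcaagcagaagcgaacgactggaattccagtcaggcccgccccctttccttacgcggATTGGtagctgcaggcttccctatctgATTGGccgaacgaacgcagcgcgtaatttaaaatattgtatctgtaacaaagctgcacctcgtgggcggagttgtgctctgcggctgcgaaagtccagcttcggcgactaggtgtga
This window held 2 matches. Of the 20 list members with an entry in the table, 17 held CCAAT in either orientation, against 34.6% of all 35116 promoters. TTTGAA, a form of the cell cycle homology region, was in 14 of the 20 and in 15.2% of all promoters, and it had no match in the KIF20A window.

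Of the G1/S and replication genes 6 of 25 were lower and 1, the cyclin CCND2 (3.03), was higher, with a median of −0.859. CCND2 started near the floor, from 0.145 CPM in DMSOV and 0.695 CPM in DMSOP. Of the homologous recombination genes 5 of 22 were lower, among them BRCA1 (−1.31), where 1.29% of all tested genes were called lower. Neither list had a called fall with DMSOP as the only control (0 of each), and DMSOV alone gave 1 and 2. None of the 29 cytosolic ribosomal protein genes was called at either time.

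The 14 day total also depended on single libraries. It was 278 with DMSOP as the only control, 380 with DMSOV as the only control, 798 without vorinostat at 14 days and 1519 without pracinostat at 14 days. Among the genes named here for 14 days that were entered in this check, none changed direction in these fits, and HLA-DRA, CIITA, TRAF1, BIRC3 and BRCA1 lost their calls with DMSOP alone.

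**Figure D2:**
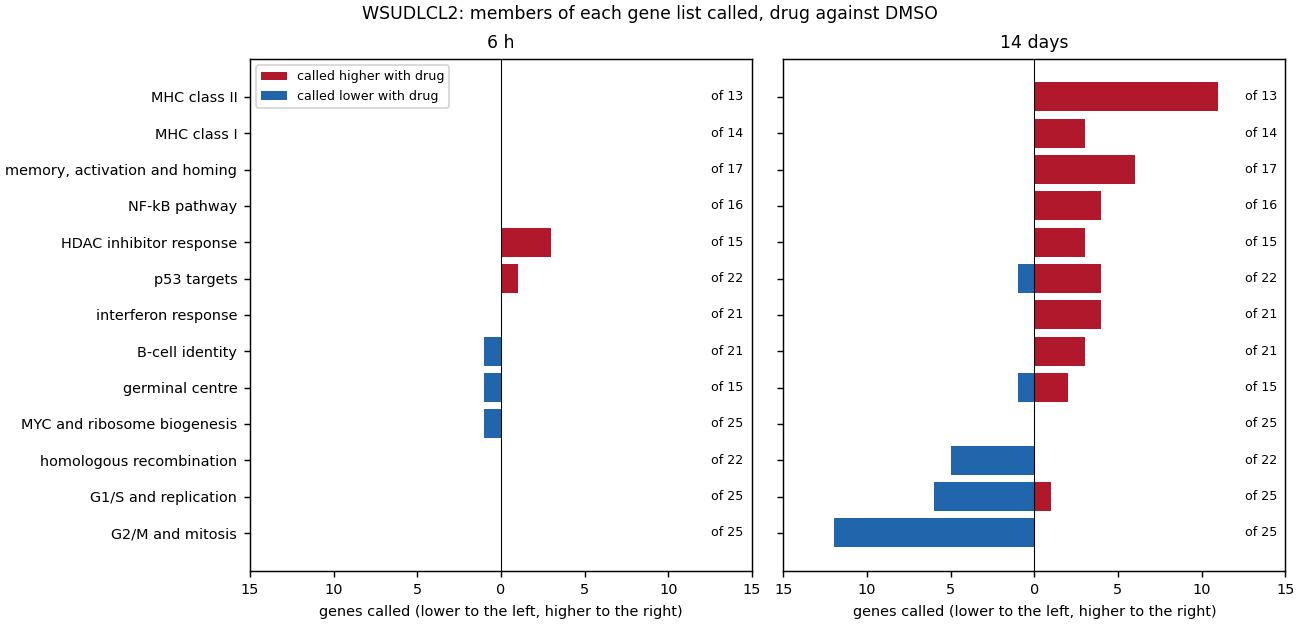
Number of genes of each list called in WSUDLCL2 at 6 h (left) and at 14 days (right), with rises with drug to the right of 0 and falls to the left, and the number tested at the edge. At 14 days 11 of 13 MHC class II genes rose and 12 of 25 G2/M genes fell, and at 6 h no gene of either list was called. Of all genes tested at 14 days, 6.74% were called higher and 1.29% lower.

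The rises called at the 2 times overlapped in part and the falls hardly did, for fits that share the same estimate of spread. Of the 64 rises at 6 h, 43 were also called higher at 14 days, which was 67.2% of the first list and 4.6% of the 934 of the second. Of all tested genes, 6.74% were called higher at 14 days. Of the 50 falls at 6 h, 1 was called lower at 14 days, 2% of that list and 0.56% of the 178. This was near the 1.29% of all tested genes called lower at 14 days. By sign alone, 62 of the 64 rises and 36 of the 50 falls had the same direction at 14 days, and no such share was computed over all genes. The test of the difference between times called 17 genes (0.123%), 16 with a larger value at 14 days (0.116%) and 1 with a smaller one (0.00722%). CD44 had 2.12 and 2.69 CPM with pracinostat and vorinostat against 4.33 CPM in DMSO at 6 h, below the vehicle, before the levels above it at 14 days (difference 6.58 ± 0.89, adjusted p = 0.018). MPEG1, a pore-forming protein of phagocytes and B cells, had 6.15 and 7.44 CPM with the drugs against 18.0 CPM in DMSO at 6 h, and 60.8 and 24.3 CPM against 1.60 CPM in DMSOV and 2.09 CPM in DMSOP at 14 days (5.97 ± 0.72). The lectin CLEC17A (4.61), the lipase MGLL (4.56) and FAM71F2 (4.36) were called in the same direction.

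SORT1, the sorting receptor sortilin, was the 1 gene with a lower value at 14 days (−4.74 ± 0.68). It had 41.4 CPM with pracinostat and 36.7 CPM with vorinostat at 6 h against 3.21 CPM in DMSO, and 9.80 and 7.37 CPM at 14 days against 14.7 CPM in DMSOV and 25.4 CPM in DMSOP. The drug libraries were above the vehicle at 6 h and below both vehicles at 14 days. The count of 17 was 0 without either drug library of 6 h or without DMSOP, 4 without DMSOV, 58 without pracinostat at 14 days and 144 without vorinostat at 14 days, and limma on the authors' log2 values called 0.

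Pracinostat and vorinostat were compared as 1 pair at matched times and at doses the labels do not give. No gene was called in pracinostat minus vorinostat (0.0% of 13851) by edgeR, 553 had an unadjusted p under 0.05, DESeq2 called 11 and limma called 0. For the 1197 genes called for both drugs together, the 95% interval of the difference had a median half-width of 1.19 log2 units. It contained 0 for 1116 of them and lay within 1 unit of 0 on either side for 158. The interval ran from −1.35 to 0.43 for CDKN1A, from −1.68 to 0.18 for TUBB2B, from −0.75 to 1.14 for HLA-DRA and from −0.50 to 0.94 for MKI67. FSCN1 was lower with pracinostat by this estimate, −2.88 with an interval of −4.40 to −1.36, and did not pass the adjusted test.

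Set against the other lines, the WSUDLCL2 response had a similar extent. Among 10636 genes, 973 were at least 2-fold higher and 694 at least 2-fold lower with drug at 6 h, where the other lines had 656 to 1156 and 543 to 845, the lowest number of rises being that of SUDHL6 with its single drug library. At 14 days 1042 were higher and 488 lower, where the other lines had 804 to 1059 and 412 to 1117. With counts summed per line and the spread taken between lines, no gene differed in its response from that of the other lines at 6 h (0.0% of 12449) or at 14 days (0.0% of 14148) by edgeR, with 275 and 465 at an unadjusted p under 0.05 and 4 and 39 called by DESeq2. A second fit gave each line its own response and took the spread from the libraries within lines. It compares these libraries and does not carry the variation between lines. By that fit WSUDLCL2 minus the mean of the other lines had 23 called genes at 6 h (0.181% of 12723), 7 higher (0.055%) and 16 lower (0.126%), and 442 at 14 days (3.63% of 12175), 230 higher (1.89%) and 212 lower (1.74%).

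At 6 h CD24, a surface glycoprotein of early B cells, had 33.7 CPM with pracinostat and 28.5 CPM with vorinostat in WSUDLCL2 against 2.37 CPM in DMSO. Its log2 change was 3.54 in WSUDLCL2 and −0.87 to 1.32 in the other lines, a difference of 3.65 ± 0.36 (adjusted p = 0.00069). RRAGD, a GTPase of nutrient sensing, changed by 4.26 in WSUDLCL2 and by −0.68 to 2.11 in the others (3.69 ± 0.47). CCDC110 had a difference of 4.19 and started from 1 count in DMSO, and its call was lost without OCILY1, PFEIFFER or SUDHL6. In the other direction AHNAK, a giant scaffold protein, changed by −2.38 in WSUDLCL2 and by −1.16 to 2.27 in the others (−3.52 ± 0.44). ASAP3 changed by 0.27 in WSUDLCL2 and by 1.80 to 4.59 in the others (−2.56 ± 0.31), and the difference for EML6 was −2.28. The 23 calls became 11 without OCILY1, 14 without TOLEDO and 42 without SUDHL4.

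At 14 days COBLL1, a regulator of actin known in B-cell leukaemia, had 61.7 CPM with pracinostat and 97.9 CPM with vorinostat in WSUDLCL2 against 0.436 CPM in DMSOV and 0.116 CPM in DMSOP. It changed by 7.11 in WSUDLCL2 and by −0.09 to 2.56 in the others (difference 6.33 ± 1.33, adjusted p = 0.0121), and the call was lost without PFEIFFER. The kinesin KIF26B (5.48), the co-chaperone DNAJC12 (4.67) and TCL1A (3.72) followed, with KDM5B (2.18), SESN1 (2.04) and BIRC3 (1.81). KIF26B started near the floor, from 0.145 CPM in DMSOV and 0.463 CPM in DMSOP. The KDM5B call was lost without OCILY1, PFEIFFER or TOLEDO. That of SESN1 was lost without OCILY1 or DMSOP, and that of BIRC3 without OCILY1 or DMSOV. HLA-B and HLA-C were each higher by 1.61 ± 0.26. HLA-C changed by 2.02 in WSUDLCL2, against 0.03 to 1.09 in the others, whereas the HLA-B change of 2.85 lay close to the 2.70 of the highest other line. HLA-DRA had a difference of −0.04 ± 0.30, with 1.76 in WSUDLCL2 and 0.47 to 3.34 in the others.

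Among germinal centre genes the calls were on the other side. Of 15 tested, 0 were called higher and 4 lower in WSUDLCL2 than in the other lines, with a median of −0.532 beside −0.01 over all genes, and 11 were not called. Over all genes 1.89% were called higher and 1.74% lower. The list's own median change was −0.04 in WSUDLCL2 and −0.10 in OCILY1 to 1.17 in TOLEDO among the other lines, so WSUDLCL2 was not the lowest. LMO2, a transcription cofactor of germinal centre B cells, had 261 and 204 CPM with pracinostat and vorinostat against 175 CPM in DMSOV and 197 CPM in DMSOP, a change of 0.31, against 1.47 to 5.56 in the other lines (difference −3.99 ± 0.36, adjusted p = 5.8e-06). MEF2C, a factor downstream of B-cell receptor signalling, had 243 and 204 CPM with the drugs against 226 CPM in DMSOV and 241 CPM in DMSOP, and its difference was −2.77 ± 0.29. BCL6 (−1.30) and MYBL1 (−1.75) were the other 2, and MEF2C and MYBL1 were named after their values were seen. The MEF2C and BCL6 calls were lost without PFEIFFER, and that of BCL6 also without TOLEDO or without DMSOP. ITGB2-AS1, which lies antisense to an integrin gene and whose reads an unstranded count cannot tell from it, had a difference of −4.62. Vehicle levels of these genes in the other lines are not given here, and a change there may start near the floor. The differences thus compare changes and not the levels reached with drug. All 25 G2/M genes were positive in this difference, with a median of 0.685, and 0 were called. The list's own median change was −1.22 in WSUDLCL2 and −3.13 to −1.19 in the others.

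The median change of the MHC class II list at 14 days was 1.76 in WSUDLCL2 and 0.73 to 1.45 in the other lines, that of the memory and activation list 1.49 against 0.12 to 0.91, that of MHC class I 0.80 against −0.13 to 0.21, and that of the NF-kB list 0.94 against −0.51 to 0.44. WSUDLCL2 was the highest line for each of these, with DMSOV and DMSOP averaged as its control. In WSUDLCL2 the median DMSOV minus DMSOP of the MHC class II list was −0.722, against −0.045 to 0.06 in the other lines. It was −0.528 for the memory and activation list, against 0.013 to 0.126, and −0.44 for NF-kB, against −0.11 to 0.06. For MHC class I it was −0.111, against −0.106 to 0.126. The memory and activation list had 11 genes of sufficient level for the vehicle median and 17 for the drug median. With DMSOP alone as control, the MHC class II median given above came near the 1.45 of SUDHL4. The measures differ, as the former is of edgeR fold changes and the 1.45 is of log2 CPM differences with the vehicles averaged. The 442 calls became 207 without DMSOP, 302 without DMSOV, 221 without PFEIFFER, 358 without OCILY1, 502 without TOLEDO and 577 without SUDHL4.

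**Figure D3:**
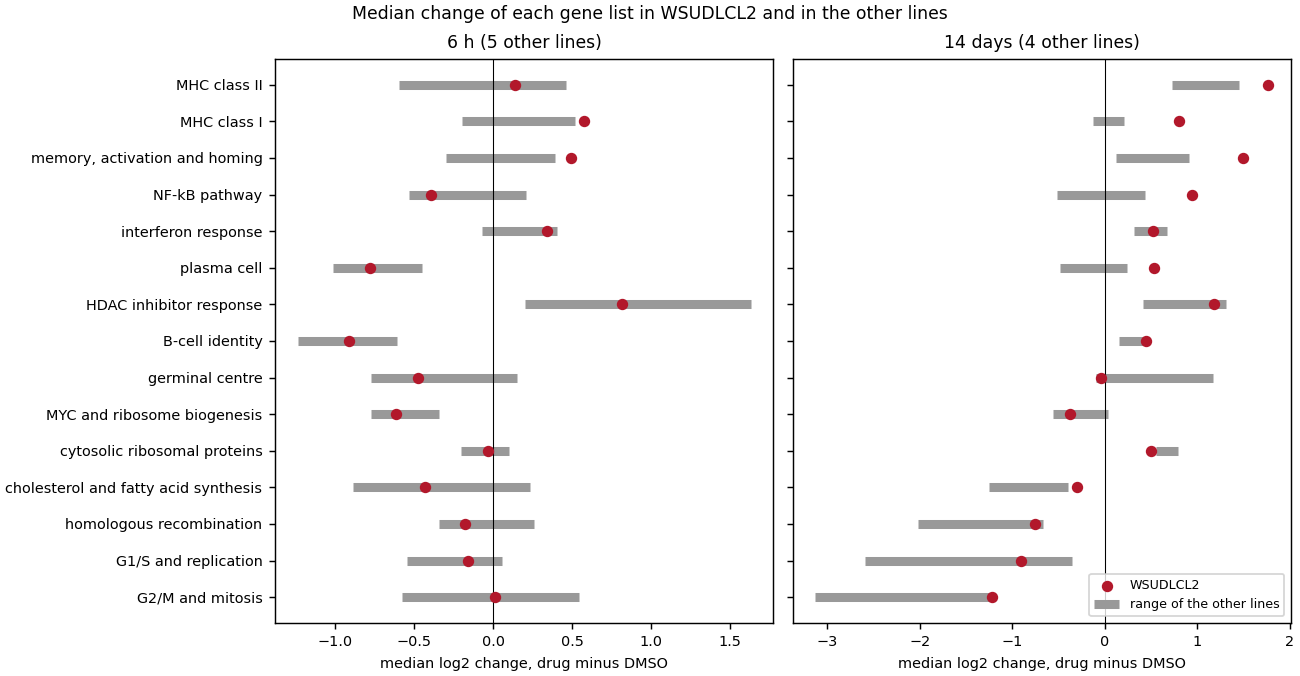
Median log2 change (drug minus DMSO) of each gene list in WSUDLCL2 (red points) and the range of the medians of the other lines (grey bars), at 6 h on the left and 14 days on the right. At 14 days, with DMSOV and DMSOP averaged as the control, the MHC class I, MHC class II, memory and NF-kB points lie to the right of the bars of the 4 other lines.

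**Figure D4:**
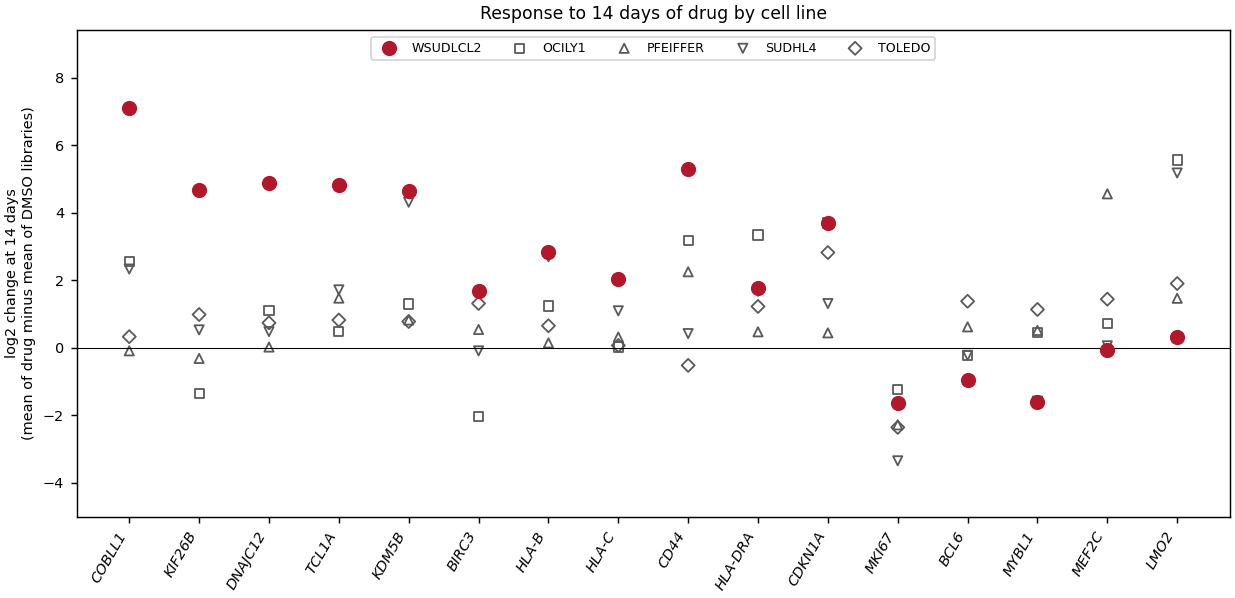
Log2 change at 14 days (mean of drug minus mean of DMSO libraries) of 16 genes in WSUDLCL2 (red) and in the 4 other lines (open symbols). COBLL1, KIF26B, DNAJC12 and TCL1A lie above every other line, while LMO2 and MEF2C lie near 0 in WSUDLCL2, below every other line.

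The 14 day vehicle libraries of WSUDLCL2 differed from each other more than those of any other line. Among 9648 genes with a mean of at least 5 CPM, DMSOV was at least 2-fold higher than DMSOP for 48 (0.498%) and at least 2-fold lower for 228 (2.36%), which was 2.86% in all. The same counts were 5 and 3 in OCILY1, 5 and 1 in PFEIFFER, 19 and 43 in SUDHL4 and 9 and 23 in TOLEDO. The SD of the log2 ratio over genes was 0.429 in WSUDLCL2 and 0.179 to 0.293 in the others. An edgeR fit tested the DMSOV minus DMSOP gap of WSUDLCL2 minus that of the other lines, whose pairs gave the spread. By it 1141 of 11827 genes (9.65%) differed, 468 with a higher gap in WSUDLCL2 (3.96%) and 673 with a lower one (5.69%). The same fit with each other line in the place of WSUDLCL2 called 0 genes, with 142 to 347 at an unadjusted p under 0.05 against 2812 for WSUDLCL2. In those fits the spread came in part from the WSUDLCL2 pair, which widens it, so their counts cannot be set against that of WSUDLCL2 on equal terms.

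Many genes of ribosome biogenesis, replication and heat shock were higher in DMSOV. In this and the next paragraph, calls, medians and values in brackets are for WSUDLCL2 minus the other lines. They are not ratios of the levels printed beside them. Over all 11827 genes tested, 3.96% were called higher and 5.69% lower. In the MYC and ribosome biogenesis list 17 of 25 were called higher and 0 lower, with a median of 0.566 beside −0.037 over all genes. MYC had 348 CPM in DMSOV and 236 CPM in DMSOP (0.62 ± 0.13), the ribosome assembly gene BRIX1 93.4 CPM in DMSOV and 39.5 CPM in DMSOP (1.00 ± 0.17). In the G1/S and replication list 11 of 24 were higher, among them the origin licensing factor CDC6 with 112 CPM in DMSOV and 47.4 CPM in DMSOP (1.11 ± 0.14). Of 14 heat shock genes 10 were higher, and of these HSPA8 had 2452 CPM in DMSOV and 1104 CPM in DMSOP (1.31) and HSP90AA1 2586 CPM in DMSOV and 1192 CPM in DMSOP (0.99), both named after their values were seen. FAM111B, a protease of replicating cells, had 208 CPM in DMSOV and 73.7 CPM in DMSOP (1.21), and GDAP1, a mitochondrial protein, 15.8 CPM in DMSOV and 4.87 CPM in DMSOP (1.68). No G2/M gene was called in either direction (0 of 25).

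Many genes of the stress response, of B cells and of antigen presentation were lower in DMSOV. Of 16 genes of the integrated stress response 10 were lower and 0 higher, with a median of −0.941, where 5.69% of all tested genes were called lower and 3.96% higher. DDIT3, the stress factor CHOP, had 4.79 CPM in DMSOV and 29.5 CPM in DMSOP (−2.44 ± 0.32, adjusted p = 2.9e-05). Of the 13 MHC class II genes 12 were lower (median −0.777), among them HLA-DRA (−0.74 ± 0.14) and CIITA (−0.64 ± 0.14). Of 19 B-cell identity genes 10 were lower, and CD79A, a chain of the B-cell receptor complex, had 543 CPM in DMSOV and 927 CPM in DMSOP (−0.80 ± 0.13). The signalling regulator RGS1 had 2.76 CPM in DMSOV and 22.8 CPM in DMSOP (−2.70), the clock-related repressor BHLHE40 2.18 CPM in DMSOV and 15.6 CPM in DMSOP (−2.28), the long non-coding RNA LINC01857 8.71 CPM in DMSOV and 47.8 CPM in DMSOP (−2.49), and the G protein subunit GNG7 3.92 CPM in DMSOV and 21.8 CPM in DMSOP (−2.47). KDM5B (−2.99) and CCR7 (−3.05) were lower in DMSOV too, and both are among the genes that rose with drug. At 14 days HLA-DRA and CIITA were highest with drug, lower in DMSOP and lowest in DMSOV. With library totals as the scaling 720 were higher and 463 lower in place of 468 and 673, as it moved the median of all genes to 0.037 from −0.037, and the MYC list then had 18 higher and the MHC class II list 12 lower.

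Against the 6 h DMSO library, DMSOV had an SD of the log2 ratio of 0.517 and DMSOP of 0.654. That 6 h library itself carries the letter V in the deposited log2 CPM values, so it is not a neutral reference. DMSOP was at least 2-fold higher than it for 665 genes and lower for 417, and DMSOV for 249 and 241. CDC6 had 108 CPM and HSPA8 3059 CPM in the 6 h library, near DMSOV, and DDIT3 had 8.66 CPM. Others lay nearer DMSOP, with HLA-DRA at 1233 CPM, CD79A at 1180 CPM and KDM5B at 5.17 CPM in the 6 h library. In the other lines both libraries lay at a similar distance, with SDs of 0.338 to 0.593 for DMSOV and 0.309 to 0.574 for DMSOP. Their 6 h libraries carry V in OCILY1 and SUDHL4 and P in PFEIFFER and TOLEDO. By SD the library of the same letter was the nearer one in WSUDLCL2, OCILY1, PFEIFFER and TOLEDO, and the farther one in SUDHL4. What the letters mark was not tested.

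The drug libraries with the matching initial deviated in part the same way. Across 10127 genes, vorinostat minus pracinostat at 14 days followed DMSOV minus DMSOP with r = 0.362 and rho = 0.39, as a description across genes that share the same 4 libraries. These genes had a mean of at least 5 CPM over the 4 libraries, so they are not the set counted above for the vehicle pair alone. In the other lines r was 0.134 in OCILY1, −0.026 in PFEIFFER, 0.033 in SUDHL4 and −0.165 in TOLEDO. HSPA8 had 1241 CPM with pracinostat and 2396 CPM with vorinostat beside 2452 CPM in DMSOV and 1104 CPM in DMSOP. Of the 57 genes at least 2-fold higher in DMSOV, 52 were higher with vorinostat than with pracinostat, and of 316 at least 2-fold lower, 211 were lower with vorinostat, where 52.8% of all genes were higher with vorinostat. With each 14 day drug library paired with the vehicle library of the same letter, the comparison over both times called 1417 genes, 1026 higher and 391 lower, beside 1197 without the pairing. The labels do not say that the letters mark a shared culture or day.

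**Figure D5:**
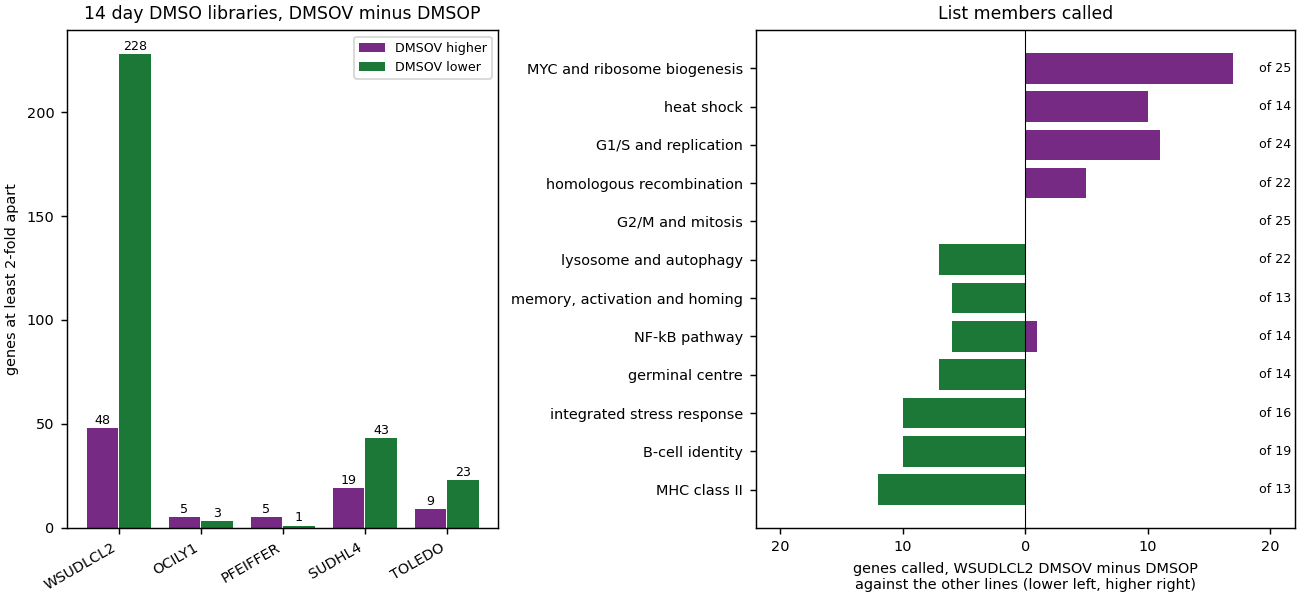
Left, number of genes at least 2-fold apart between the 14 day DMSO libraries of each line, DMSOV minus DMSOP: 48 higher and 228 lower in WSUDLCL2, at most 19 and 43 in another line. Right, members of each list called in the WSUDLCL2 difference against that of the other lines, higher in DMSOV to the right and lower to the left, with 17 of 25 MYC and ribosome biogenesis genes higher and 12 of 13 MHC class II genes lower. Of all tested genes, 3.96% were called higher and 5.69% lower.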

How the data were processed

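RNA was total RNA taken up in Trizol and made into TruSeq RNA libraries, per the labels. The authors deposited raw counts per gene and a table of log2 CPM values, made with STAR and edgeR on hg38, per the submitters' processing notes. Tool versions, how reads were counted and whether strand was used: not given in the sources used here. The counts held 18011 genes in 37 libraries, and 17859 genes took a symbol from GENCODE release 29. The 38 listed samples include 1 more than the table has columns, and it was not analysed here.

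Counts were tested with edgeR 4.0.16 quasi-likelihood (R 4.3.3), with TMM scaling, genes kept by filterByExpr (minimum count 10, minimum total 15) and Benjamini-Hochberg adjustment over all kept genes, called at an adjusted p under 0.05. One model with a group for each time and arm (drug or DMSO) gave the 6 h effect, the 14 day effect and their difference, and time was a block for both times together. Printed log2 fold changes come from these fits with their SE, and levels are CPM after TMM scaling over all 37 libraries. Changes quoted per line are differences of mean log2 CPM with a prior count of 2. The response in WSUDLCL2 minus that of the other lines was fitted on counts summed per line and arm. The fit with the spread between libraries was chosen after seeing that this one made no call. For DMSOV minus DMSOP, the gap in WSUDLCL2 was tested minus that of the 4 other lines, whose pairs gave the spread. Intervals of ratios of counts are exact for counting error only, and a gene at 0 was set to 3 counts per library.

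The genes named were the 10 largest called rises and falls for both times together, 5 each at a time, 6 each against the other lines and 8 each between the vehicles, above the level limit, with up to 2 rises and 2 falls of each of 38 lists and a fixed set of genes. Those 10 rises and falls for both times also had to have the same sign in all 4 drug libraries. Members that complete a list's count, HSPA8 and HSP90AA1 were named after their values were seen. The members and lists were chosen with earlier results of these data known. Alternatives used DESeq2 1.42.0, limma 3.58.1 on the deposited log2 values, other scalings and filters, and each library or line left out. The fits were tested on simulated data.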

Additional observations from a re-analysis of the deposited data

Results flagged for a closer look

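The difference between the times and the differences from the other lines and between the vehicle libraries were tested directly, and each result here was picked out because such a test called it. Between the times, 17 genes differed in their drug effect (14 days minus 6 h). Of these CD44 had a log2 difference of 6.58, MPEG1 of 5.97, CLEC17A of 4.61, MGLL of 4.56, FAM71F2 of 4.36 and SORT1 of −4.74, and all 6 lost their calls without either 6 h drug library.

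In WSUDLCL2 minus the mean of the other lines, with the spread between libraries, 23 genes differed at 6 h. CCDC110 was higher by 4.19, RRAGD by 3.69 and CD24 by 3.65, while AHNAK had −3.52, ASAP3 −2.56 and EML6 −2.28. At 14 days 442 genes differed. COBLL1 was higher by 6.33, KIF26B by 5.48, DNAJC12 by 4.67, TCL1A by 3.72, KDM5B by 2.18, SESN1 by 2.04, BIRC3 by 1.81, and HLA-B and HLA-C by 1.61 each. ITGB2-AS1 had −4.62, LMO2 −3.99, MEF2C −2.77, MYBL1 −1.75 and BCL6 −1.30. The calls of CCDC110, COBLL1, KDM5B, SESN1, BIRC3, MEF2C and BCL6 were lost when single lines or vehicle libraries were left out, as given above. None of the genes named for this difference was called by edgeR with the spread between lines, where DESeq2 called 4 genes at 6 h and 39 at 14 days.

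For the 14 day vehicle libraries, the DMSOV minus DMSOP gap of 1141 genes in WSUDLCL2 differed from that of the other lines. The values given here are this difference and not the gap itself. Higher in DMSOV were GDAP1 (1.68), HSPA8 (1.31), FAM111B (1.21), CDC6 (1.11), BRIX1 (1.00), HSP90AA1 (0.99) and MYC (0.62). Lower in DMSOV were CCR7 (−3.05), KDM5B (−2.99), RGS1 (−2.70), LINC01857 (−2.49), GNG7 (−2.47), DDIT3 (−2.44), BHLHE40 (−2.28), CD79A (−0.80), HLA-DRA (−0.74) and CIITA (−0.64).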

How the results depend on the processing

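Of the values of named genes, 715 came from leaving out a library or line and 673 from other alternatives. None reversed (0), and 145 and 60 of them were no longer called. Leaving out each library or line in turn moved the calls for both times to 444 to 1755, for 6 h to 0 to 514, for 14 days to 278 to 1519, for the difference between times to 0 to 144 and for pracinostat minus vorinostat to 0 to 6. With the spread between libraries, WSUDLCL2 minus the other lines ranged from 11 to 42 at 6 h and from 207 to 577 at 14 days, with the spread between lines it stayed at 0, and DMSOV minus DMSOP ranged from 773 to 1212. For both times, no time block gave 188, and RLE size factors 1207. At 6 h the 6 h libraries alone gave 533, DESeq2 302, no low-count filter 414 and library totals 38, split 28 higher and 10 lower against 64 and 50. At 14 days DMSOP alone gave 278, DMSOV alone 380 and limma 714. For the difference between times DESeq2 gave 120, no filter 131, library totals 7 and limma 0. DESeq2 gave 11 for pracinostat minus vorinostat. Against the other lines DESeq2 gave 4 at 6 h and 39 at 14 days with the spread between lines, unsummed libraries 139 at 14 days, and DESeq2 58 at 6 h and 745 at 14 days with the spread between libraries. For the vehicle pair, a limit of 1 CPM in place of 5 gave 725 genes at least 2-fold apart. The cause of these moves was not tested. A lone library in a group was assumed to vary like the others. The labels give no replicate numbers that the groups share, so no fit had a block by number. The 14 day libraries paired by the letter in their titles gave 1417, and the IRF4 call was lost. Depth limits genes near the floor of 0.336 to 0.878 CPM.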
